A study of Mus musculus with 24 samples.

Results

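The control mandible was set against the control maxilla of mouse embryos at embryonic day 12.5 (E12.5), on 8 of the 24 arrays of the study. The arrays were chosen by their titles alone: 4 carry control mandible RNA and 4 control maxilla RNA, and in each jaw 2 were labelled distal and 2 proximal, with replicate numbers 1 and 2. Each array reports the RNA level of each probe set as a log2 value, so that a difference of 1 is a 2-fold difference. The labels give the strain as C57B6. The controls were littermates of mutants from matings of Wnt1cre;Alk5fl/+ mice with Alk5fl/fl mice, and their own genotype is not given further. The other 16 arrays come from mandibles and maxillae of Alk5 knockout embryos of the same stage, 4 for each end of each jaw. In those embryos Cre driven by Wnt1 regulatory sequence removes Alk5, the type I TGF-beta receptor also named Tgfbr1, from neural crest cells, and mutants were recognised by cleft palate and a skull vault defect. The labels do not say which arrays share an embryo or a pool, so p-values reflect only how far these samples spread, which may be technical.

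The lower jaw forms from the mandibular prominence of the first pharyngeal arch, and the upper jaw from the maxillary prominence together with tissue of the frontonasal region. Neural crest cells give both prominences their skeleton and connective tissue. In the lower part of the arch, endothelin signalling through its receptor on crest cells maintains Dlx5 and Dlx6, and these in turn maintain Hand2, whereas maxillary crest cells develop without this programme. Muscle precursors, facial ectoderm, nerve and, in the upper face, the nasal epithelium lie beside the crest-derived mesenchyme, so whole dissected pieces can hold any of them. In such bulk samples fewer cells of a type and less RNA per cell cannot be told apart.

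The jaw labels held for Hand2, whose 4 mandible arrays lay above its 4 maxilla arrays, but the labels of the ends disagreed between replicates. Alx1, a homeobox gene of the craniofacial mesenchyme, was higher at the distal than at the proximal end of the mandible by 3.49, 4.44, 5.60 and 5.54 log2 units in knockout replicates 1 to 4 and by 5.67 in control replicate 1. In control replicate 2 its level was 5.65 in the library labelled distal mandible and 11.64 in the library labelled proximal mandible, a difference of -5.99. Hand2 behaved likewise, with distal minus proximal differences of 0.78, 1.304, 2.45 and 2.33 in the knockout mandibles, 1.92 in control replicate 1 and -1.57 in control replicate 2. Over the 13487 genes tested, the distal minus proximal differences of replicates 1 and 2 correlated at -0.79 in the mandible and at -0.36 in the maxilla. This is a description across genes, which are not independent. The libraries labelled as mandible replicate 2 therefore go against the other arrays in their end labels. In the maxilla Lhx2, a LIM homeobox gene of the forebrain, eye and nasal epithelium, was higher at the labelled distal end by 4.51 in control replicate 1 and differed by -1.54 in control replicate 2. The comparison of jaws averages both ends, and it was repeated without the mandible arrays numbered 2, and without the 2 maxilla arrays highest in Lhx2 (distal replicate 1 and proximal replicate 2, called the Lhx2-high maxilla arrays below). Those values are given for the genes with the largest differences and beside each difference printed, and each list median printed of over 0.2 in size, that they move by over 1.5 times. Because the Lhx2-high maxilla arrays were picked by their Lhx2 level, a smaller difference without them is built in for Lhx2. The same holds for genes that vary with Lhx2 among the maxilla arrays.

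**Figure D1:**
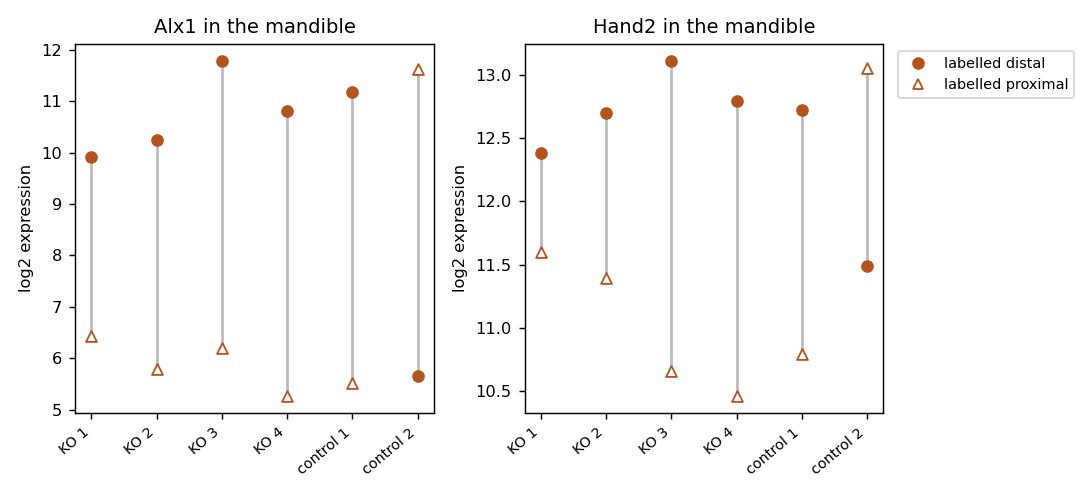
Log2 expression of Alx1 and Hand2 in the mandible for knockout (KO) replicates 1 to 4 and control replicates 1 and 2, with filled circles for libraries labelled distal, open triangles for libraries labelled proximal, and a grey line joining both ends of a replicate. In control replicate 2 the library labelled proximal is the higher one, 11.64 against 5.65 for Alx1, while in the other 5 pairs the library labelled distal is the higher one.

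The array medians of the 8 arrays lay between 6.76 and 6.85. The gap between 3' and 5' control probe sets of Gapdh and beta-actin, a measure of RNA integrity and labelling, was 0.18 to 0.22 on the mandible arrays and 0.13 to 0.19 on the maxilla arrays, so it moved with the jaw in part. Array-to-array correlations over genes had a median of 0.964 within groups of the same jaw and end, 0.978 between the ends of the same jaw and 0.960 between jaws.

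The main test found no gene that passed its threshold, while single named genes differed between the jaws by up to 19.3-fold. In limma with 4 group means and the 8 control arrays alone, 0 of 13487 genes (0%) had a Benjamini-Hochberg adjusted p below 0.05, 1095 had an unadjusted p below 0.05, and the smallest adjusted p was 0.256, for Mdga2 and Lrrc75b. With the 24 arrays in 1 limma fit, which lends the spread of the knockout arrays to the same control contrast, 27 genes (0.2%) passed, 8 of them higher in the mandible (0.0593%) and 19 lower (0.141%). With the ends left out of the model, a choice made after the data were seen, 2 genes passed (0.0148%), Lrrc75b and Flrt1, both lower in the mandible. The 4 group means follow end labels that disagree between replicates, so differences between ends can enter the spread of the 8-array fit. The median SE over all genes was 0.094 in that fit and 0.089 with the ends left out. All 4 mandible arrays lay above all 4 maxilla arrays for 462 genes (3.43%) and below them for 560 genes (4.15%), and 100 genes (0.741%) with such separation differed by 2-fold or more. When each array was centred on its own median these counts were 731 higher and 353 lower, so the balance of the directions depends on the scaling. The median difference over all genes tested was -0.0028, and the median size of the difference was 0.084. For a gene whose arrays do not overlap, the exact 2-sided permutation test over the 70 splits of 4 against 4 arrays gives p = 0.0286, the smallest it can give.

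Among the regulators of lower jaw identity, Hand2 had the largest difference of any named gene whose arrays were separated in favour of the mandible. Hand2 encodes a basic helix-loop-helix (bHLH) transcription factor needed for mandible development. Its level was 12.72, 11.49, 10.80 and 13.05 on the mandible arrays and 8.71, 8.003, 8.36 and 6.65 on the maxilla arrays, given here and below as labelled distal replicate 1, distal replicate 2, proximal replicate 1 and proximal replicate 2. The jaws did not overlap, and the lowest mandible value lay 2.08 log2 units above the highest maxilla value. The means were 12.01 ± 1.06 in the mandible and 7.93 ± 0.90 in the maxilla (SD, n = 4 each). The difference was 4.08 ± 0.67 (SE), or 16.9-fold, with a limma adjusted p of 0.502 in the 8-array fit and 0.00908 in the 24-array fit. It was 3.83 without the mandible arrays numbered 2 and 3.83 without the Lhx2-high maxilla arrays, and the other probe sets of Hand2 above the filter gave 2.56 and 2.10.

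Pitx1, a paired-type homeobox gene of the oral region, mandible and hindlimb, was next among the identity genes. It read 11.96, 11.54, 10.94 and 11.92 in the mandible, against 10.18, 8.74, 9.18 and 9.62 in the maxilla. The jaws were separated, with means of 11.59 ± 0.48 and 9.43 ± 0.61 (SD, n = 4 each), and the difference of 2.16 ± 0.39 (SE) had a limma adjusted p of 0.503 in the 8-array fit and 0.00517 in the 24-array fit. Its other probe set gave 2.16 as well. The difference was 2.02 without the mandible arrays numbered 2 and 2.63 without the Lhx2-high maxilla arrays.

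Dlx6 read 10.13, 10.89, 10.77 and 10.53 in the mandible, against 9.59, 8.17, 9.54 and 8.93 in the maxilla, a difference of 1.52 ± 0.37 (SE). Dlx5 read 10.69, 11.34, 11.20 and 10.93 in the mandible and 9.88, 10.06, 10.30 and 10.17 in the maxilla, a difference of 0.94 ± 0.16 (SE). Both are homeobox genes of the lower part of the arch, and both were separated by jaw without passing the 8-array limma fit (adjusted p of 0.508 for Dlx6 and 0.502 for Dlx5). The other 4 Dlx genes were also higher in the mandible on average but overlapped: the differences were 1.09 for Dlx4, 0.90 for Dlx3, 0.72 for Dlx1 and 0.71 for Dlx2. Without the Lhx2-high maxilla arrays Dlx1 differed by 0.30 and Dlx2 by 0.37, and with the RNA quality gap as a covariate Dlx6 differed by 0.27. Dlx1 and Dlx2 act in both parts of the arch. Gsc, a homeobox gene downstream of endothelin signalling in the lower jaw, differed by 1.07 ± 0.50 (SE) and overlapped, because the distal maxilla array of replicate 1 read 10.40; without the Lhx2-high maxilla arrays it differed by 1.83. Hand1, the second Hand gene, differed by 0.54 and overlapped.

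Taken as a list, 9 of the 10 mandibular identity genes were tested, all 9 had a higher mean in the mandible, and 4 were separated by jaw (Hand2, Pitx1, Dlx6 and Dlx5), beside 3.43% of all genes. Their median difference was 1.07, against -0.0028 over all genes tested, and 0 of 9 passed the 8-array fit while Hand2 and Pitx1 passed the 24-array fit. The list's mean level was 9.62 to 10.14 on the mandible arrays and 8.21 to 8.62 on the maxilla arrays. Its median was 0.93 without the mandible arrays numbered 2 and 1.19 without the Lhx2-high maxilla arrays. The endothelin pathway itself, read through 12 tested ligand, receptor, converting enzyme and effector genes, had a median of -0.01, with 1 member separated by jaw: Furin, a protease that processes precursor proteins, at 9.90 ± 0.09 in the mandible and 9.70 ± 0.06 in the maxilla (SD, n = 4 each).

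**Figure D2:**
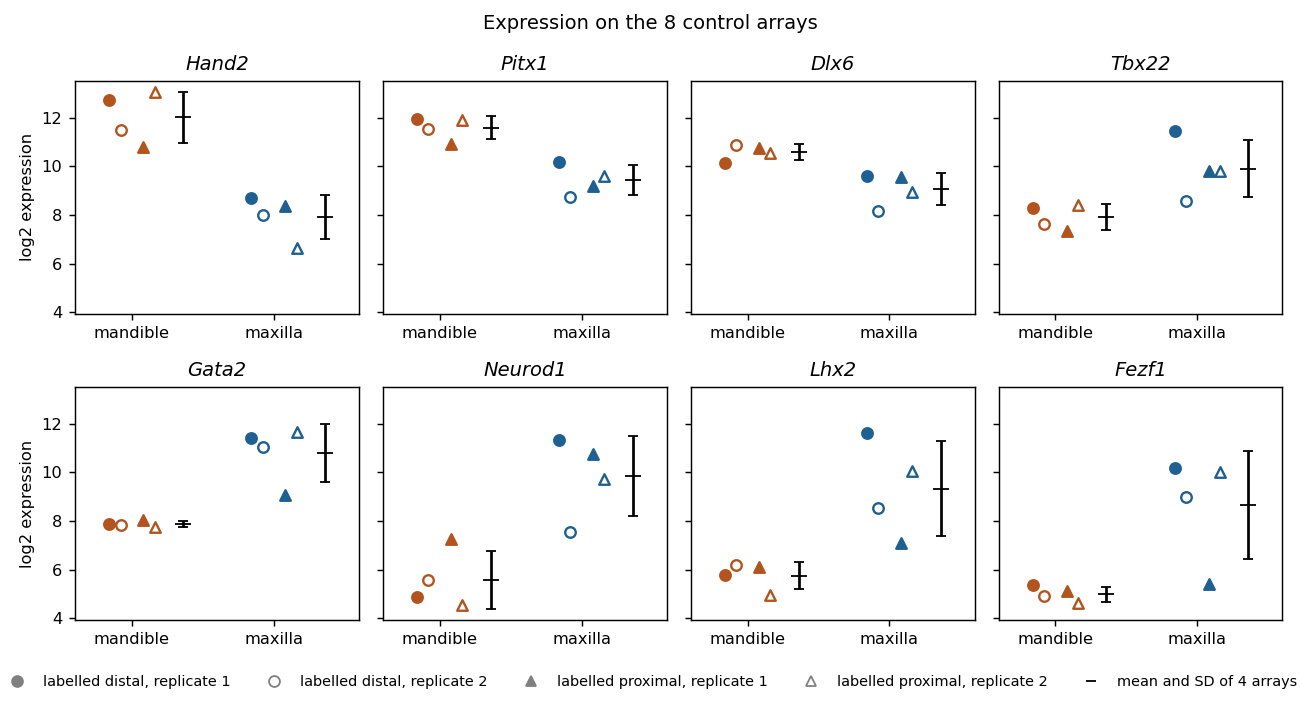
Log2 expression of 8 genes on each of the 8 control arrays, mandible left of maxilla, with circles for libraries labelled distal and triangles for libraries labelled proximal, filled for replicate 1 and open for replicate 2, and bars for mean and SD of 4 arrays. Hand2, Pitx1 and Dlx6 lie higher on all mandible arrays, and Tbx22, Gata2, Neurod1, Lhx2 and Fezf1 on all maxilla arrays; the maxilla arrays of Fezf1 spread from 5.42 to 10.18.

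The sequences around the start of Hand2 and Neurod1 are shown because these bHLH genes had the largest separated difference of the named genes in each direction. The bHLH proteins bind the E-box CANNTG. Each window runs from 250 bases before to 50 after the annotated gene start, from RefSeq on GRCm38.p6, 5′ to 3′ on the gene's strand, with E-boxes in capitals. The Hand2 window is chr8:57320733-57321032 on the plus strand, and the Neurod1 window is chr2:79456587-79456886 on the minus strand.
Hand2: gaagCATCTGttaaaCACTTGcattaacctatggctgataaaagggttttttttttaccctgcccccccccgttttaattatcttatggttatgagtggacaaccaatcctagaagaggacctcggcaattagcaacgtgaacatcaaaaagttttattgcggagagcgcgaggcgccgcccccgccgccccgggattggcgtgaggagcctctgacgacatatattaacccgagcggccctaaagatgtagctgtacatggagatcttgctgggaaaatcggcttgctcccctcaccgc
Neurod1: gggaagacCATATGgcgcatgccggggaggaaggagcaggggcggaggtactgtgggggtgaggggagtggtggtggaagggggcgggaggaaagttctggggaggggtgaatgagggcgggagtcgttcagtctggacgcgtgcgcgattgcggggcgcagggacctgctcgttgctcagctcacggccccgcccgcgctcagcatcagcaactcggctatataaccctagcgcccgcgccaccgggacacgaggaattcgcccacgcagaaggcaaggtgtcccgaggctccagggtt
The Hand2 window holds 2 E-boxes and 1 copy of TAATTA, a core bound by many homeodomain proteins, and the Neurod1 window holds 1 E-box and 0 copies of TAATTA. Both motifs read the same on either strand and do not overlap each other here. Of 32851 RefSeq windows of 300 bases, 72.3% hold an E-box and 5.29% hold TAATTA, so an E-box match is common. The matches describe these letters only.

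The other genes among the 15 largest separated differences in favour of the mandible fell outside the classical identity genes. Genes whose arrays overlap are not among these 15, and several described further on, such as Myh3 and Hoxa2, had larger mean differences. Predicted genes and clones were also left out of the 15 in each direction. Tbx4, a T-box gene known from the hindlimb and lung, read 8.94, 8.24, 7.42 and 9.42 in the mandible and 6.35, 7.33, 6.49 and 7.23 in the maxilla, a difference of 1.65. Nr5a2, an orphan nuclear receptor of early embryo and liver, averaged 9.06 ± 0.63 and 7.10 ± 0.82 (SD, n = 4 each). Its difference was 1.95, and the lowest value over the alternative settings listed at the end was 0.41. Meox1, a homeobox gene of somite-derived mesenchyme, averaged 9.98 ± 0.11 in the mandible and 8.36 ± 0.86 in the maxilla. All 3 transcription factors were separated by jaw. The maxilla varied more than the mandible for Meox1, from 7.46 to 9.36.

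Channel proteins formed a further set. Gjb2 and Gjb6 encode connexin gap junction proteins of epithelia, and Panx3 encodes a pannexin channel known from cartilage and bone. Gjb6 read 9.52, 9.37, 8.93 and 9.18 in the mandible, against 5.42, 8.85, 8.28 and 6.18 in the maxilla. Gjb2 read 10.51, 10.94, 10.49 and 10.19, against 7.33, 9.47, 10.12 and 7.72 in the maxilla. Both were steady across the mandible and separated from the maxilla by small gaps, since their highest maxilla values, 8.85 and 10.12, came close to the mandible. The libraries labelled distal maxilla replicate 1 and proximal maxilla replicate 2 were the lowest. Without those 2 arrays the differences were 0.69 for Gjb6 and 0.73 for Gjb2, against 2.07 and 1.87 with them. Panx3 read 10.20, 7.29, 7.99 and 9.51 in the mandible and 5.63, 6.87, 5.88 and 5.74 in the maxilla, a difference of 2.72 ± 0.74 (SE).

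Of the remaining genes in this set, Gpr50, an orphan receptor related to the melatonin receptors, read 7.83, 7.14, 6.68 and 8.35 in the mandible and 5.63, 4.98, 4.66 and 4.24 in the maxilla. Its maxilla values lay below the filter level of 6.04, near the lower end of the scale. Pamr1, which encodes a secreted protein with a peptidase domain, was steady within each jaw, at 8.60 ± 0.21 and 6.40 ± 0.47 (SD, n = 4 each), a difference of 2.21 ± 0.25 (SE). Plac1 and Nexmif differed by 1.85 and 1.66, and the tetraspanin gene Tspan8 by 1.52. The other probe set of Tspan8 above the filter gave 0.16. Ccl11, the chemokine eotaxin, read 5.36, 7.09, 7.004 and 4.91 in the mandible and 4.44 to 4.76 in the maxilla, so its separation rests on values partly below the filter level. Gpr50, Plac1 and Nexmif lie on the X chromosome, as do 3.23% of the genes tested. The adjusted p-values of the 15 genes in the 8-array limma fit ran from 0.502 to 0.63.

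In the opposite direction, the 15 genes with the largest separated differences included several neuronal and forebrain or olfactory regulators. Neurod1, a bHLH factor of differentiating neurons, read 4.89, 5.60, 7.27 and 4.57 in the mandible and 11.33, 7.57, 10.76 and 9.75 in the maxilla. The jaws were separated by a narrow gap between the library labelled proximal mandible replicate 1 and that labelled distal maxilla replicate 2. The means were 5.58 ± 1.21 and 9.85 ± 1.66 (SD, n = 4 each), a difference of -4.27 ± 1.01 (SE), with a limma adjusted p of 0.508 in the 8-array fit and 0.0113 in the 24-array fit. Its second probe set gave -4.79. The difference was -3.77 without the mandible arrays numbered 2 and -3.58 without the Lhx2-high maxilla arrays. Insm1, a zinc finger factor of neuronal and endocrine progenitors, read 6.47, 5.96, 6.71 and 6.43 in the mandible and 10.91, 8.28, 9.04 and 9.51 in the maxilla. Nhlh1 and Nhlh2, bHLH factors of young neurons, differed by -2.66 and -3.87, and the arrays of Nhlh2 overlapped because the library labelled proximal mandible replicate 1 read 7.57.

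Fezf1, a zinc finger repressor of the forebrain and olfactory epithelium, read 5.35, 4.91, 5.11 and 4.62 in the mandible, all below the filter level, and 10.18, 8.99, 5.42 and 10.002 in the maxilla. The library labelled proximal maxilla replicate 1 was close to the mandible, and the other 3 maxilla libraries lay well above it. Lhx2 showed the same order of the maxilla libraries, with 5.79, 6.21, 6.11 and 4.95 in the mandible and 11.62, 8.52, 7.11 and 10.06 in the maxilla. Without the Lhx2-high maxilla arrays the differences were -2.20 for Fezf1 and -2.05 for Lhx2, against -3.65 and -3.56 with them. This fall was built in, since the arrays were picked by their Lhx2 level. Uncx, a homeobox gene of brain and somites, rested on those arrays most, with 9.12 and 7.51 on them and 4.33 to 4.41 on the other maxilla arrays, and its difference was -0.31 without them against -2.28 with them. Its mandible values of 3.89 to 4.28 lay below the filter level. Dmrta2 and Dmrt3, doublesex-related factors of the forebrain, differed by -2.40 and -2.32, with maxilla ranges of 8.19 to 11.22 and 6.94 to 10.42, and by -1.21 and -0.98 without the Lhx2-high maxilla arrays.

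Gata2, a zinc finger factor of blood, nerve and ectoderm, read 7.87, 7.84, 8.06 and 7.74 in the mandible, the tightest group among these genes, and 11.42, 11.05, 9.06 and 11.65 in the maxilla. The difference was -2.92 ± 0.56 (SE), with a limma adjusted p of 0.503 in the 8-array fit and 0.00517 in the 24-array fit, and its second probe set gave -2.83. It was -2.18 without the Lhx2-high maxilla arrays. Elf5 and Ehf, ETS factors of epithelia, differed by -2.62 and -2.21, again with the library labelled proximal maxilla replicate 1 nearest to the mandible, at 6.93 for Elf5 and 4.57 for Ehf. Without the Lhx2-high maxilla arrays they differed by -1.27 and -1.41, and Fstl5 by -1.71. Fstl5, a follistatin-like secreted protein, differed by -3.12, Gpm6a, a neuronal membrane glycoprotein, by -2.39 and Cadps, a factor of vesicle release, by -2.15. Foxl2os, the transcript opposite to Foxl2, differed by -2.26 and Foxl2, a forkhead factor, by -1.75. Both were highest in the library labelled proximal maxilla replicate 1, at 9.62 and 11.01. The sources used here do not state the probes' strand, so signal of the 2 genes cannot be told apart with certainty. The adjusted p-values of the 15 largest separated differences in this direction ran from 0.503 to 0.675 in the 8-array limma fit.

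The brain, eye and olfactory list and the neuron list moved with these genes. Of 10 tested members of the brain, eye and olfactory list, 8 had a lower mean in the mandible and 2 were separated by jaw (Lhx2 and Six3), beside 4.15% of all genes, and the median was -0.99. The list's mean level was 7.11 to 7.58 on the mandible arrays and 7.62 to 9.91 on the maxilla arrays. The forebrain and olfactory genes Otx2 and Sp8 differed by -3.66 and -3.46 and overlapped, since the library labelled proximal maxilla replicate 1 read 4.62 and 4.32 for them. They differed by -1.69 and -1.72 without the Lhx2-high maxilla arrays. The mandible values of Six3 (5.63 to 5.93) and Sp8 (3.96 to 4.39) lay below the filter level. The filter therefore admitted Six3 and Sp8 only through the maxilla, where they were high. The list's median was -0.27 without the Lhx2-high maxilla arrays. The neuron list had 16 tested members, 13 lower on average in the mandible and 3 separated (Neurod1, Stmn2 and Neurog1), with a median of -1.09 and mean levels of 7.38 to 9.23 in the mandible and 8.16 to 11.20 in the maxilla. Its median was -0.67 without the mandible arrays numbered 2, and -0.54 without the library labelled proximal maxilla replicate 1. By mean level the neuron list was highest in the library labelled proximal maxilla replicate 1, where Prph, an intermediate filament of peripheral neurons, read 12.49, and the brain, eye and olfactory list was highest in that labelled distal maxilla replicate 1. The part of nerve and nasal tissue in the differences above was not tested.

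Beyond the 30 genes with the largest separated differences, the 24-array fit passed Nhlh2, described above, and other genes. Lrrc75b, a leucine-rich repeat gene, shared the smallest adjusted p of the 8-array fit with Mdga2, at 5.82, 5.71, 6.28 and 5.58 in the mandible and 7.60, 8.03, 8.04 and 8.12 in the maxilla. Its difference was -2.10 ± 0.18 (SE), with a limma adjusted p of 0.256 in the 8-array fit, 0.0383 with the ends left out and 0.000275 in the 24-array fit. Adamts8, a secreted metalloprotease gene, averaged 7.47 ± 0.20 and 6.56 ± 0.05 (SD, n = 4 each), and Tbx5, a T-box gene of the heart and forelimb, 7.27 ± 0.21 and 6.36 ± 0.25. Klf14 and Tac2, a Krüppel-like factor and a tachykinin precursor, differed by 1.43 and 1.41, Zadh2 by 1.16, and the imprinted zinc finger gene Peg3 by 0.49. Lower in the mandible by this fit were also Sox2, a factor of progenitors in neural and oral epithelium, at 8.55 ± 0.62 against 10.51 ± 0.60 in the maxilla (SD, n = 4 each), Dmrta1 with -2.03, the presynaptic scaffold gene Pclo with -1.98 and the GABA receptor gene Gabrb2 with -1.75. Ttc9, Rd3, Abcc4, Cadm3 and Camta1 differed by -1.36, -1.36, -1.10, -0.97 and -0.63. One further probe set of Camta1 above the filter gave 0.06, the opposite sign. The other probe set of Ttc9 above the filter gave -0.14.

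On the control arrays the transcription factors of maxillary and frontonasal mesenchyme did not mirror the mandibular set. Of 15 tested members, 10 had a lower mean in the mandible and the median was -0.18. Only 1 was separated by jaw (Six2, lower), beside 4.15% of all genes. Six2, a homeobox gene of facial mesenchyme, read 10.73, 10.73, 10.89 and 10.67 in the mandible, against 12.27, 11.34, 11.66 and 12.02 in the maxilla, a difference of -1.07 ± 0.22 (SE). Alx1 and Pax3 differed widely among the mandible libraries. Alx1 read 11.19, 5.65, 5.52 and 11.64 in the mandible and 11.98, 12.63, 10.17 and 12.76 in the maxilla. Thus 2 of the 4 mandible libraries had Alx1 close to the maxilla, and the difference of -3.39 had an SE of 1.83. Pax3, a paired-box gene of crest, ectoderm and muscle precursors, read 10.59, 6.70, 6.31 and 10.93 in the mandible and 8.57 to 10.77 in the maxilla. In the fit of the knockout arrays described below, Alx1 differed by -3.69 and Pax3 by -2.02. The list's median there was -0.53. In that fit 6 members passed lower in the mandible, beside 5.94% of all genes, and 1 passed higher, beside 3.55%. Tfap2b, an AP-2 factor of crest and ectoderm, differed by -0.84 and overlapped. Pou3f3, a POU factor of the upper part of the arch, differed by 0.60 ± 0.57 (SE), with the library labelled distal maxilla replicate 1 lowest at 9.24, and by -0.24 without the Lhx2-high maxilla arrays.

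In the oral homeobox and T-box list, 18 genes were tested, 10 higher and 8 lower on average, and 4 separated: Pitx1 and Tbx1 higher, beside 3.43% of all genes, and Tbx22 and Pax9 lower in the mandible, beside 4.15%. The median was 0.25, and -0.14 without the Lhx2-high maxilla arrays. Tbx22, a T-box gene required for the palate, read 8.27, 7.64, 7.33 and 8.43 in the mandible and 11.45, 8.56, 9.81 and 9.81 in the maxilla, a difference of -1.99 ± 0.67 (SE). Pax9, a paired-box gene of teeth and palate, read 8.85, 7.54, 8.45 and 8.64 in the mandible and 9.995, 9.25, 9.11 and 10.48 in the maxilla, a difference of -1.34 ± 0.43 (SE). Tbx22 differed by -1.27 and Pax9 by -0.81 without the Lhx2-high maxilla arrays. Tbx1, a T-box gene of pharyngeal mesoderm and endoderm, differed by 0.55 (0.87 without the mandible arrays numbered 2), and its mandible mean was drawn up by 9.28 in the library labelled proximal mandible replicate 1. Tbx18 overlapped, with 5.01 in the library labelled proximal maxilla replicate 2 and 8.85 to 10.82 on the other maxilla arrays. Of the 13 palatal shelf genes tested, Tbx22 alone was separated (lower, beside 4.15% of all genes) and the median was -0.01. Osr1, a zinc finger factor of palate and tongue-side mesenchyme, differed by 1.14 ± 0.48 (SE) and overlapped, and by 0.43 without the Lhx2-high maxilla arrays.

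Of 11 tested forkhead genes of the facial mesenchyme, 10 had a lower mean in the mandible, 3 were separated (Foxl2, Foxd2 and Foxf2), beside 4.15% of all genes, and the median was -0.88. In the 8-array fit 0 of 11 passed. Foxd2 read 7.33, 7.38, 8.29 and 7.39 in the mandible and 10.14, 9.20, 8.65 and 9.35 in the maxilla. Foxf2, a hedgehog-responsive factor of palate mesenchyme, read 8.03, 6.46, 8.55 and 8.46 in the mandible and 10.06, 8.78, 9.11 and 9.15 in the maxilla. Foxd1 and Foxf1 differed by -1.40 and -1.02 and overlapped. Without the Lhx2-high maxilla arrays the list's median was -0.37.

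**Figure D3:**
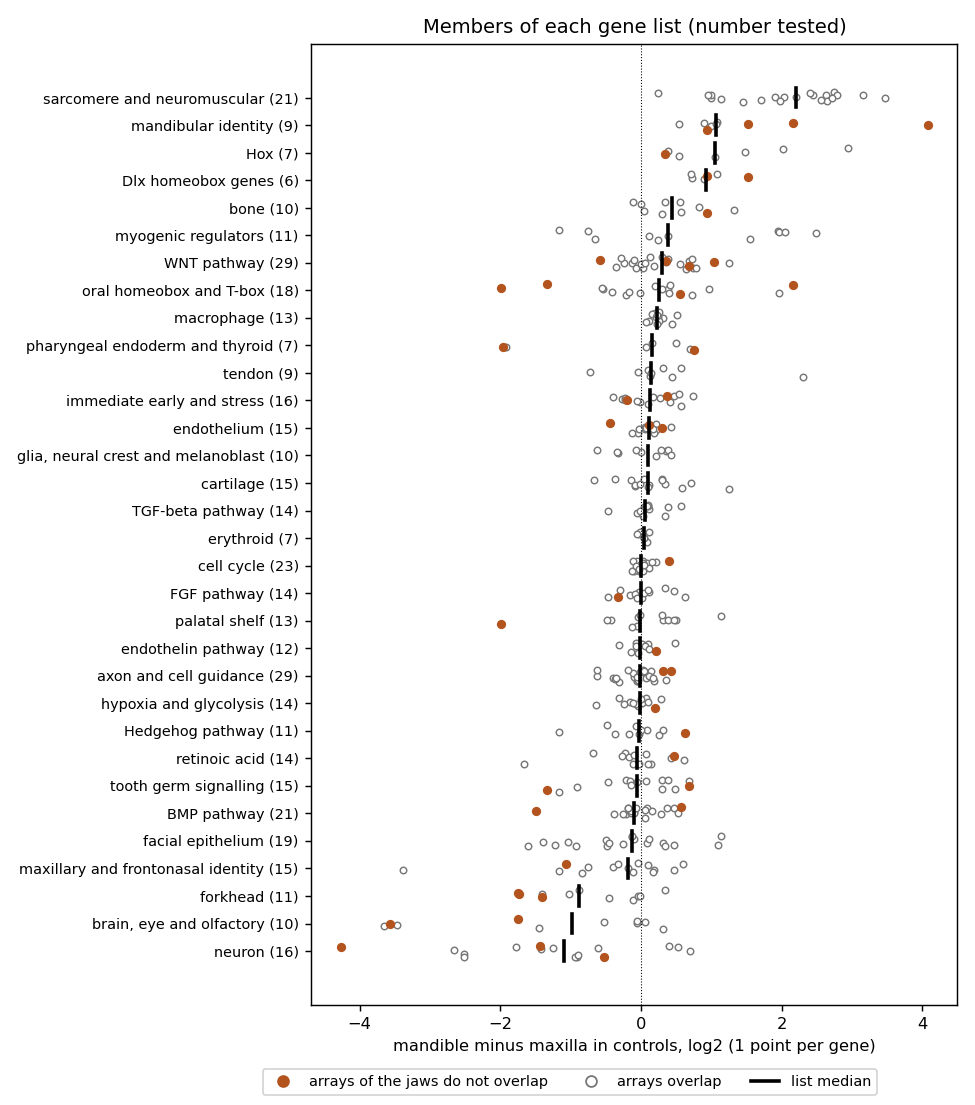
Difference of control means, mandible minus maxilla on the log2 scale, for each tested member of 32 gene lists, 1 point per gene, filled where the 4 mandible and 4 maxilla arrays do not overlap, with a black bar at the list median. The sarcomere and mandibular identity lists have the highest medians, 2.20 and 1.07, and the neuron, brain and forkhead lists the lowest, -1.09, -0.99 and -0.88.

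Of the signalling pathways, WNT had the median furthest from that of all genes. In each but TGF-beta at least 1 member was separated by jaw, beside 3.43% of all genes separated higher and 4.15% lower. Among 21 BMP pathway genes (median -0.10), Id4, a BMP-responsive inhibitor of bHLH factors, averaged 9.98 ± 0.47 in the mandible and 11.47 ± 0.41 in the maxilla, and Grem1, a secreted BMP antagonist, 8.17 ± 0.15 and 7.60 ± 0.18 (SD, n = 4 each). Among 14 FGF pathway genes (median -0.01), Dusp6, a phosphatase induced by FGF signalling, differed by -0.32. Among 11 Hedgehog pathway genes (median -0.02), the co-receptor Cdon differed by 0.63, while the ligand Shh differed by -1.17 and overlapped, with 6.55 in the library labelled distal mandible replicate 2, and by -0.71 without the mandible arrays numbered 2. Of the 14 TGF-beta pathway genes 0 were separated, and the median was 0.06.

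Among 29 WNT pathway genes (median 0.30), 21 had a higher mean in the mandible, and Wnt2, Wnt10a and Ror2 were separated higher and Dkk3 lower, beside 3.43% and 4.15% of all genes. The list's median was 0.08 without the Lhx2-high maxilla arrays and 0.02 without distal maxilla replicate 1 alone. Wnt2, a WNT ligand, averaged 7.51 ± 0.09 in the mandible and 6.47 ± 0.90 in the maxilla, and the receptor Ror2 10.04 ± 0.11 and 9.69 ± 0.12 (SD, n = 4 each). Wnt2, without the Lhx2-high maxilla arrays, differed by 0.47, against 1.03 with them, and Wnt10a by 0.37, against 0.69. Sfrp4, a secreted WNT inhibitor, was high in 2 mandible libraries only, at 10.32 in distal replicate 1 and 9.65 in proximal replicate 2, the libraries with high Alx1, and at 6.77 to 6.79 on the other mandible arrays. Among 14 retinoic acid genes (median -0.06), Rdh10, an enzyme of retinal synthesis, differed by 0.46 and was separated, and Aldh1a3, an enzyme of retinoic acid synthesis, differed by -1.66 ± 0.72 (SE) and overlapped, and by -0.59 without the Lhx2-high maxilla arrays. Among 29 axon and cell guidance genes (median -0.02), Efnb2 and Robo1, an ephrin ligand and a Slit receptor, were separated with differences of 0.43 and 0.31. One of the other probe sets of Robo1 above the filter gave -0.11.

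Skeletal muscle genes had the highest list median without 1 separated member. All 21 tested sarcomere and neuromuscular genes had a higher mean in the mandible, with a median of 2.20, and 0 were separated by jaw. Myh3, an embryonic myosin heavy chain, read 10.78, 12.01, 12.54 and 10.28 in the mandible and 10.08, 4.84, 11.98 and 4.82 in the maxilla. Actc1, the alpha cardiac actin of embryonic muscle, read 12.66, 13.43, 13.77 and 12.15, against 11.64, 7.79, 13.47 and 6.51 in the maxilla. The mandible arrays were uniformly high, and the libraries labelled proximal and distal maxilla replicate 1 reached or approached them while those of maxilla replicate 2 were low. With the 3' to 5' gap of the control probe sets as a covariate the list's median was -0.16, and the differences were -1.03 for Myh3 and -0.16 for Actc1. Among 11 myogenic regulators (median 0.38, and 0.59 without the Lhx2-high maxilla arrays), the muscle determination genes Myog and Myod1 differed by 2.49 and 1.96 and Tcf21, a bHLH factor of head muscle precursors, by 2.05 ± 0.53 (SE), and 0 were separated. The maxilla values of Tcf21, 4.08 to 5.98, lay below the filter level, so the filter admitted Tcf21 only through the mandible. Of 9 tendon genes (median 0.14), Thbs4, a matrix protein of the muscle-tendon junction, differed by 2.30 and overlapped.

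Skeletal matrix lists varied more between libraries of a jaw than between the jaws. The 15 cartilage genes had a median of 0.10 with 0 separated, and mean levels of 9.44 to 9.91 in the mandible and 8.83 to 10.43 in the maxilla. The 10 bone genes had a median of 0.44, or 0.18 without the Lhx2-high maxilla arrays. Dlx5 was the separated member, beside 3.43% of all genes separated higher. Ibsp, a bone matrix protein, read 10.14, 3.46, 4.15 and 8.86 in the mandible and 2.99, 8.59, 3.69 and 6.04 in the maxilla, so that high and low libraries occurred in both jaws; it differed by 1.32, and by 0.51 without the Lhx2-high maxilla arrays.

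Hox genes, which the first arch lacks and the second and later arches express, were higher in some mandible libraries. All 7 tested had a higher mean in the mandible, with a median of 1.05 (0.45 without the Lhx2-high maxilla arrays). Hoxa5 was separated, at 7.27 ± 0.11 and 6.93 ± 0.15 (SD, n = 4 each), beside 3.43% of all genes separated higher. Hoxa2 read 5.10, 9.93, 9.92 and 4.05 in the mandible and 3.90 to 5.23 in the maxilla. It was therefore high in the libraries labelled distal replicate 2 and proximal replicate 1, the mandible libraries with low Alx1. Hoxb2 followed, with 8.35 and 8.65 in those libraries and 5.91 to 6.19 in the other mandible libraries. The maxilla values of Hoxa2 lay below the filter level, so the filter admitted Hoxa2 only through the mandible. Hoxd1 read 9.58, 9.53, 9.51 and 7.52 in the mandible and 4.00, 9.30, 10.47 and 4.29 in the maxilla. Its highest value of all was in the library labelled proximal maxilla replicate 1, and it differed by 2.02, and by -0.85 without the Lhx2-high maxilla arrays.

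Epithelial genes had no common direction. Of 19 facial epithelium genes 12 had a lower mean in the mandible and 0 were separated, with a median of -0.13. The simple epithelial keratins Krt8 and Krt18 differed by -1.61 and -1.39, and the basal keratins Krt5 and Krt15 by 1.14 and 1.09. Krt5 read 6.67 in the library labelled distal maxilla replicate 1, against 9.82 to 11.75 on the other maxilla arrays, and Krt15 read 7.87 there. Without the Lhx2-high maxilla arrays the differences were -0.68 for Krt8, -0.46 for Krt18, 0.16 for Krt5 and 0.07 for Krt15. Among 15 tooth germ genes (median -0.06), Wnt10a was separated higher and Pax9 lower, beside 3.43% and 4.15% of all genes. Among 7 pharyngeal endoderm and thyroid genes (median 0.15), Nkx2-3, a homeobox gene of pharyngeal endoderm, was separated with 0.76, as was Sox2 in the other direction, while Foxa1 overlapped with a difference of -1.92, or -1.13 without the Lhx2-high maxilla arrays. Nkx2-1, Pax8 and Tg, markers of the thyroid, were not tested.

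Other tissue lists differed little. The endothelium list had a median of 0.12 over 15 genes. Pecam1, Kdr and Erg were separated at 0.30, 0.12 and -0.44, beside 3.43% of all genes separated higher and 4.15% lower. All 13 tested macrophage genes had a higher mean in the mandible (median 0.23, and 0.10 without the Lhx2-high maxilla arrays) and 0 were separated. The medians were 0.04 over 7 erythroid genes, 0.10 over 10 genes of glia, neural crest and melanoblasts, 0.0 over 23 cell cycle genes, 0.13 over 16 immediate early and stress genes and -0.02 over 14 genes of hypoxia and glycolysis. In these lists Ccne1, Atf3 and Egln3 were separated higher, with differences of 0.40, 0.37 and 0.19, and Dusp1 lower, with -0.20.

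The jaw difference was also read at each labelled end, where each jaw has 2 arrays. In limma 0 genes (0%) passed at the distal end and 0 (0%) at the proximal end, with 559 and 622 genes at an unadjusted p below 0.05. For Hand2 the difference was 3.74 at the distal end and 4.42 at the proximal end, and for Neurod1 -4.21 and -4.33. The test of whether the difference depends on the end called 0 genes (0%), with 151 at an unadjusted p below 0.05. Since the end labels of the mandible replicates disagree, these values compare the libraries as labelled.

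The knockout arrays gave a second reading of the jaw difference in other embryos. The 15 genes with the largest separated differences in favour of the control mandible were all higher in the knockout mandible too, and 12 passed limma there, and all 15 of the opposite set were lower and passed. This fit of the 16 knockout arrays, added after the data were seen, had the array numbers 1 and 2 against 3 and 4 as a block and called 1280 of 13487 genes (9.49%), 479 higher (3.55%) and 801 lower (5.94%). Among the genes of both sets, Gpr50 and Ccl11 were above the filter level on control mandible arrays alone. Fezf1, Fstl5, Nhlh1, Uncx and Ehf were above it on control maxilla arrays alone. The filter therefore admitted these genes only through the jaw where they were high. Of the 27 genes of the 24-array fit, whose spread shares the knockout arrays, 27 had the same direction and 26 passed. Among these 27, Tac2 was above the filter level on control mandible arrays alone. Dmrta1, Rd3, Fezf1, Fstl5 and Nhlh1 were above it on control maxilla arrays alone. These genes too were admitted only through the jaw where they were high. Of the 462 genes separated higher in controls, 328 were higher in the knockouts and 99 passed, and of the 560 separated lower, 509 were lower and 189 passed. In the knockouts 36 genes (0.267%) were separated higher and 61 (0.452%) lower over 8 against 8 arrays, and 12 and 22 of these were so in the controls.

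Hand2 ranged from 10.46 to 13.11 with a median of 11.99 in the knockout mandible, and from 5.77 to 8.86 with a median of 7.70 in the knockout maxilla. The difference was 4.33 ± 0.37 (SE, limma adjusted p = 1.81e-05) in the knockouts, against 4.08 in the controls. For Pitx1 it was 2.09 ± 0.17 in the knockouts and 2.16 in the controls, and for Neurod1 -4.04 ± 0.32 and -4.27. Gata2 differed by -2.24 in the knockouts and -2.92 in the controls, and Dlx6 by 2.01 and 1.52. These genes kept their direction, and their differences in the genotypes lay within 1 log2 unit of each other. Of the 30 genes Panx3 was furthest apart, with 0.31 ± 0.34 in the knockouts (adjusted p = 0.647), where the mandible median was 4.58 and the maxilla median 4.72, against 2.72 ± 0.74 in the controls. Ccl11 and Tspan8 were the other 2 genes of the 15 that did not pass in the knockouts, with 0.42 and 0.43.

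The difference between genotypes itself was tested over all 24 arrays. In limma 0 genes (0%) passed for the jaw difference in knockouts minus that in controls, 100 had an unadjusted p below 0.05, and the smallest adjusted p was 1.0 when rounded. Predicted genes and clones aside, the 5 smallest p-values, none of them passing, belonged to Adamts8 (0.28 in knockouts and 0.91 in controls), Ror2 (-0.07 and 0.35), Tac2 (0.18 and 1.41), Lrrc75b (-1.13 and -2.10) and Sema3a (0.40 and -0.06), the last a secreted guidance molecule. For Panx3 the difference between genotypes was -2.41 ± 0.86 (SE).

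**Figure D4:**
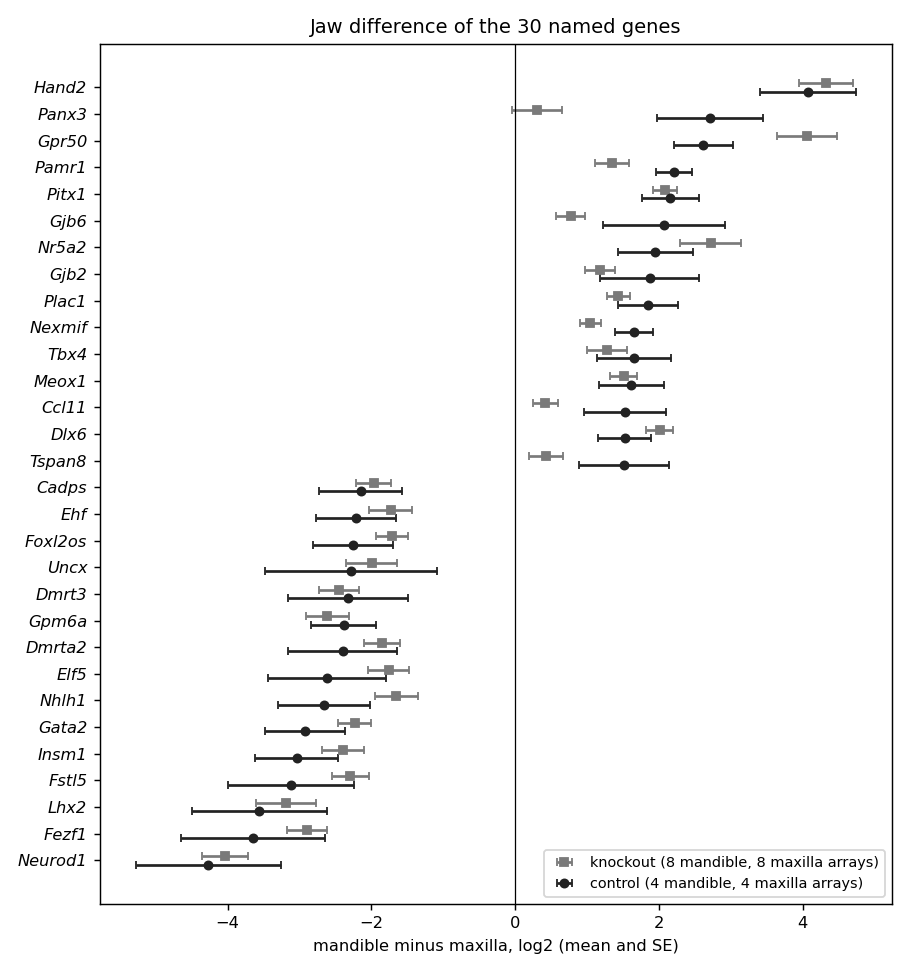
Mandible minus maxilla on the log2 scale, mean and SE, for the 30 named genes, in knockouts (grey squares, 8 arrays per jaw) and in controls (black circles, 4 arrays per jaw). All 30 have the same direction in both genotypes; Panx3 is 0.31 in knockouts and 2.72 in controls.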

How the data were processed

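Total RNA was labelled with biotin and hybridised to 1 expression array per sample. Per the submitters' processing notes, the authors used RMA, which gives log2 signal for each probe set. Its version is not given in the sources used here. Nothing states if all arrays shared 1 run. Of 45101 probe sets, 64 control features were set aside, 34945 carry 1 gene symbol, 932 several and 9160 none; 34741 matched RefSeq (GRCm38.p6). Each of 18193 genes was read from its brightest probe set by mean over the 8 control arrays, and 13487 genes above the 40th percentile (log2 of 6.04) on at least 2 control arrays were tested. Values were compared with lmFit and eBayes of limma 3.58.1 (R 4.3.3; 4 group means, 4 residual degrees of freedom), 2-sided, with Benjamini-Hochberg adjustment and a threshold of 0.05, and the code was tested on simulated data. The number of arrays limits the precision. In the fit of all 24 arrays each of the 8 groups had its own mean.

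Named genes were to be the 15 largest differences each way past the threshold with no overlap between jaws. Predicted genes and clones (Gm numbers, Rik and accession-like symbols) were counted but not named, here and among the smallest p-values. Since none passed, the threshold was dropped after the values were seen. For the interactions the 5 smallest p-values were named, and up to 6 members of each of 32 gene lists. The comparisons, lists and genes were chosen with earlier results of these data known. Of 123 named genes, 91 had a promoter window. The probe sets with no or several symbols were tested apart, where 0 of 3964 (0%) passed and 187 (4.72%) were separated by jaw. Alternatives changed the scaling, filter, probe set, spread, fit, replicate block, RNA quality and arrays included.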

Additional observations from a re-analysis of the deposited data

Results flagged for a closer look

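Over the 123 named genes, 246 groups of 4 arrays of 1 jaw were searched for an array far from the other 3 by Dixon's ratio, and 8 were found. The limit used flags about 1 in 20 groups of 4 independent normal values. Each group here mixes 2 labelled ends, the genes share arrays, and many were picked for separation by jaw. That rate therefore does not apply directly, and the count was not tested against chance. The library labelled proximal maxilla replicate 1 stood apart for Foxl2os (9.62, against 7.65 to 7.82 on the other maxilla arrays), Foxl2 (11.01, against 9.15 to 9.46), Cadm3 (8.81, against 7.91 to 8.05) and Tfap2b (9.59, against 10.55 to 10.70). The library labelled proximal mandible replicate 1 stood apart for Tbx1 (9.28, against 8.06 to 8.15 on the other mandible arrays), Foxd2 (8.29, against 7.33 to 7.39) and Tbx5 (6.95, against 7.37 to 7.38). The library labelled proximal mandible replicate 2 stood apart for Hoxd1 (7.52, against 9.51 to 9.58).

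Predicted genes and clones aside, the 5 genes with the smallest p for a jaw difference that depends on the labelled end had opposite directions at the ends. The difference at the distal end minus that at the proximal end was 0.67 for Myo1a, -0.74 for Neurl1b, -1.10 for Emx2, -0.73 for Dnmt3b and -0.47 for Primpol. None passed the interaction test in limma, where the smallest adjusted p over all genes was 1.0 when rounded, and the end labels of the replicates disagree.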

How the results depend on the processing

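The count of genes passing for the jaw difference was 0 in the 8-array fit and 0 under median centring, quantile normalization, no filter, the stricter filter, both other probe set rules, eBayes with trend and robust settings, ends averaged first, the RNA quality covariate, and without either set of doubted arrays. It was 27 with all 24 arrays, 2 with ends left out of the model, and 0 to 1 when 1 array was left out (1 without proximal maxilla 1 and without proximal maxilla 2). At the proximal end it was 1 with all 24 arrays and 0 to 10 without 1 array (10 without proximal maxilla 2); at the distal end and for the interaction it stayed at 0. As labelled, the replicate numbers do not pair all samples: deviations of same-numbered arrays correlated at 0.27 to 0.59 in the 3 pairs of groups without distal mandible and at -0.69 to -0.37 in the 3 pairs with it. The replicate block gave 0 genes, 1 gene with the ends left out as well, and 0 with the distal mandible numbers crossed. The genotype comparison stayed at 0. Genes separated by jaw numbered 576 to 1122 higher and 653 to 1200 lower without 1 array, 959 and 1064 without the mandible arrays numbered 2, and 975 and 1300 without distal maxilla 1 and proximal maxilla 2; fewer arrays separate more easily. Of 2786 values of 117 genes over 24 settings, 2777 kept their direction. The RNA quality covariate reversed Gsc (-0.47), Pax3 (0.76), Actc1 (-0.16) and Myh3 (-1.03). Leaving out those maxilla arrays reversed Pou3f3 (-0.24) and Hoxd1 (-0.85), and leaving out 1 array gave -0.35 to 3.00 for Ibsp (lowest without distal mandible 1, and -0.08 without distal maxilla 1) and -0.13 to 2.41 for Krt5 (lowest without distal maxilla 1). The cause was not tested.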
